A study of Mus musculus with 6 samples.

Results

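Smooth muscle contractile genes were followed across RNA sequencing of whole pancreas from mouse embryos at e16.5. The set holds 10 genes (Acta2, Actg2, Myh11, Myl9, Cnn1, Tagln, Lmod1, Des, Synpo2 and Myocd) of the 54735 gene symbols in the count tables. They were chosen by symbol, with the difference between the groups and the pattern among libraries already known from these same data, so their own differences are given here as description and not as evidence. The 3 RARdn samples carried Neurog3:cre together with the allele that the labels write as RARdnfl/fl. The 3 control samples carried Neurog3:cre alone, and every sample had the mixed C57Bl6/129SV background. The letters RARdn usually stand for a dominant-negative retinoic acid receptor, which the labels do not spell out. The driver is that of Neurog3, the transcription factor of endocrine progenitors, whereas the contractile genes belong to muscle and vessel wall cells outside that lineage, and the labels do not state in which cells the allele was active.

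Smooth muscle cells shorten when myosin filaments pull on actin filaments, after the regulatory light chain of myosin has been phosphorylated in response to calcium. Their contractile genes are switched on together by serum response factor, which binds a DNA element called the CArG box, and by its partner myocardin. In the pancreas such cells lie around arteries and larger ducts, and pericytes of small vessels and activated stromal cells share part of the programme.

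Counts in genes came to 35256531 to 52015498 in the RARdn libraries and 38572573 to 44735721 in the control libraries. Levels are CPM (counts scaled to a common library total) after scaling between libraries with the trimmed mean of M-values (TMM), and all 10 genes passed the filter on low counts. The groups differed in more than genotype. Reads outside genes took 2.90% to 5.3% of reads in RARdn libraries and 7.60% to 8.99% in controls. Xist, the transcript of the inactive X chromosome, was at 0.125 to 0.199 CPM in RARdn libraries and at 1150, 0.313 and 1089 CPM in control 1, 2 and 3, so the sexes were not balanced. Markers of digestive enzyme cells took 7.05%, 20.6% and 25.6% of counts in RARdn 1, 2 and 3 and 17.2% to 18.4% in controls. The 9 markers used to check the labelled tissue, Pdx1, Ptf1a and Ins1 among them, summed to 7221 to 22687 CPM in RARdn and 17241 to 18925 CPM in control libraries. Most of each sum was Cpa1, which is also among the digestive enzyme markers, at 4660 to 20443 CPM in RARdn and 14428 to 16071 CPM in controls. Pdx1 was at 33.1 to 54.8 CPM in RARdn and 47.7 to 55.9 CPM in controls, and Ptf1a at 28.5 to 59.4 and 46.8 to 55.4 CPM. The part of these group differences in the results below was not tested.

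All 10 contractile genes had a higher mean in RARdn than in control pancreas, and their summed level was 290.1 ± 105 CPM in RARdn and 139.7 ± 30.1 CPM in control libraries (SD, n = 3 each). By library the sum was 249, 409 and 212 CPM in RARdn 1, 2 and 3, against 174, 123 and 121 CPM in control 1, 2 and 3. The sums did not overlap, and RARdn 2 stood above both other RARdn libraries. Their median log2 fold change was 1.41, where that of all 19070 genes tested was 0.00051. In bulk tissue, more muscle cells and more contractile RNA per cell cannot be told apart.

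Of the 10 genes, 7 were higher in each RARdn library than in any control, and 13.9% of all genes tested were separated in this way. In CPM without TMM scaling, Myl9 and Des also overlapped and Tagln did not. At an adjusted p under 0.05 from edgeR's quasi-likelihood test over all genes, 4 of the 10 were called higher and none lower, where 1.37% of all genes tested were called higher. DESeq2 called 7 higher, with 4.17% of all its genes, and limma-voom 2, with 1.42% of all its genes. In edgeR 8 of the 10 had an unadjusted p under 0.05, as did 22.2% of all genes tested. These counts describe the choice of genes, since the same contrast was known when they were chosen.

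**Figure D1:**
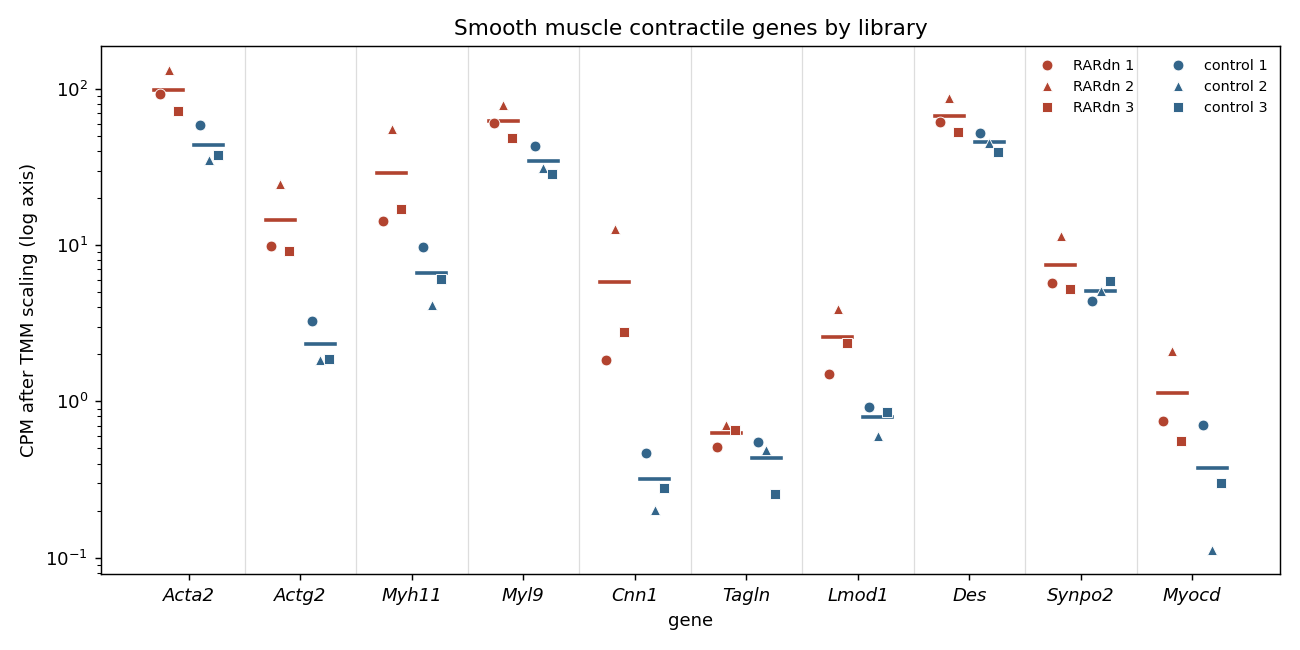
Level of each contractile gene in CPM after TMM scaling (log axis), with RARdn libraries in red left of control libraries in blue, a marker shape for each replicate number and a bar at each group's mean. RARdn 2 (triangle) was the highest RARdn library for 10 of 10 genes, and Tagln, Synpo2 and Myocd overlapped between groups.

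Promoter sequence was looked at because the genes are known to share a regulator. RefSeq start site windows of GRCm38.p6, running from 250 bases before to 50 after the start, were matched by symbol for 6 of the 10 genes: Acta2, Myl9, Cnn1, Lmod1, Des and Synpo2. The CArG box was searched as CC and GG around 6 bases that are all A or T, which reads the same on both strands, and again with 1 middle base changed. The M-CAT element GGAATG, bound by TEAD factors, was searched on both strands. A CArG box was in 1 of the 6 windows and in 1.63% of all 32851 windows, its near form in 2 of 6 and 8.50% of all, and GGAATG in 2 of 6 and 14.7% of all. Shown with matches in capitals are the windows of Acta2 (chr19:34255324-34255623, minus strand) and Myl9 (chr2:156775214-156775513, plus strand), which hold CArG forms. Beside them stand Lmod1 (chr1:135324563-135324862, plus strand) and Cnn1 (chr9:22099003-22099302, plus strand), the gene with the largest difference.

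Acta2: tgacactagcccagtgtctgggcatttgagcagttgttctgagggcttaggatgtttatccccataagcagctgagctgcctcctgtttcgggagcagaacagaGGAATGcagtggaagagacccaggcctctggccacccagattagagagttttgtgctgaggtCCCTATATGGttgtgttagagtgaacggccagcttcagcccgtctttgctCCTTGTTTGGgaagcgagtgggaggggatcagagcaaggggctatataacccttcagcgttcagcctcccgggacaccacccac

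Myl9: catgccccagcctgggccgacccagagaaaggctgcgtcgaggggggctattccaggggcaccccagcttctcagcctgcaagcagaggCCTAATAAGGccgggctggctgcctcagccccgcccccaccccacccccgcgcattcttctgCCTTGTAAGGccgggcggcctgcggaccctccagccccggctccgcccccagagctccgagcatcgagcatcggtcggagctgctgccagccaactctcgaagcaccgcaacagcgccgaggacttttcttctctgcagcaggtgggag

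Lmod1: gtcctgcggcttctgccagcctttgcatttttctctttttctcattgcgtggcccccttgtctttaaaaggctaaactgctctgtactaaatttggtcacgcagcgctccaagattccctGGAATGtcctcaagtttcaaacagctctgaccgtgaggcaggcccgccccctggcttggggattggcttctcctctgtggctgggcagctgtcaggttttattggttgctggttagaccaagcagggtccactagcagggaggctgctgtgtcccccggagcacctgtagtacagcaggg

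Cnn1: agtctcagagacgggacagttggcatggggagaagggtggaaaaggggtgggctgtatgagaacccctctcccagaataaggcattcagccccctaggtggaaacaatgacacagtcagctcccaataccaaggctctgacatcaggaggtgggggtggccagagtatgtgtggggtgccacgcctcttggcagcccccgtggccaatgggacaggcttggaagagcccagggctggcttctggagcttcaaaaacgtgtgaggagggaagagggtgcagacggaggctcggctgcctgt

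The Myl9 window held a full CArG box, CCTAATAAGG, at bases -161 to -152 from the start, and a near form, CCTTGTAAGG, at -99 to -90. The Acta2 window held near forms, CCCTATATGG at -84 to -75 and CCTTGTTTGG at -34 to -25, and GGAATG at -146 to -141. The Lmod1 window held GGAATG at -130 to -125. The windows of Cnn1, Des and Synpo2 held none of these letters. The genes with CArG forms in this window had log2 fold changes of 1.17 (Acta2) and 0.87 (Myl9), and those without ranged from 0.55 (Synpo2) to 4.20 (Cnn1).

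Acta2 encodes the smooth muscle alpha actin of vessel walls and activated stromal cells (chromosome 19, 34241090 to 34255590, GRCm38). It was at 92.3, 132 and 71.8 CPM in RARdn 1, 2 and 3, against 58.8, 34.9 and 37.8 CPM in control 1, 2 and 3. Every RARdn library lay above every control, with means of 98.9 ± 30.8 CPM in RARdn and 43.9 ± 13.03 CPM in control libraries (log2 fold change 1.17, SE 0.26, adjusted p = 0.0431, edgeR). Without control 2, control 3 or RARdn 2 the adjusted p was 0.163, 0.149 and 0.105.

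Actg2 encodes the gamma actin of visceral smooth muscle, the kind found in hollow organs (chromosome 6, 83512905 to 83536265). It was at 9.88, 24.5 and 9.18 CPM in RARdn 1, 2 and 3, against 3.29, 1.83 and 1.88 CPM in control 1, 2 and 3. The lowest RARdn library lay well above the highest control, with a log2 fold change of 2.65 (SE 0.42, adjusted p = 0.0165, edgeR). Without control 2 or control 3 the adjusted p was 0.0663 and 0.0597, while without RARdn 2 it was 0.0415. Actg2 moved more than Acta2 in these libraries. Ratios between genes, here and below, were not planned and describe members whose differences were already known. Per count of Acta2 there were 0.107, 0.185 and 0.128 counts of Actg2 in RARdn 1, 2 and 3, against 0.0559, 0.0523 and 0.0496 in control 1, 2 and 3. This ratio is within a library and does not depend on scaling, and it did not overlap between groups.

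Myh11, the smooth muscle myosin heavy chain and the most specific marker of mature smooth muscle (chromosome 16, 14194535 to 14291372), was at 14.3, 55.2 and 17.1 CPM in RARdn 1, 2 and 3, against 9.79, 4.12 and 6.09 CPM in control 1, 2 and 3. RARdn 2 held by far the highest level, and the groups did not overlap. The log2 fold change was 2.12 (SE 0.53, adjusted p = 0.0631, edgeR), so Myh11 was not called, whereas DESeq2 called it (adjusted p = 0.0313). Without RARdn 2 the log2 fold change was 1.24. Per count of Myh10, a nonmuscle myosin heavy chain, there were 0.0902, 0.412 and 0.146 counts of Myh11 in RARdn 1, 2 and 3, against 0.0693, 0.0292 and 0.0395 in control 1, 2 and 3.

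Myl9, the regulatory light chain that is phosphorylated to start contraction (chromosome 2, 156775420 to 156781658), was at 61.0, 78.9 and 48.5 CPM in RARdn 1, 2 and 3, against 43.4, 31.3 and 28.5 CPM in control 1, 2 and 3. RARdn 3 and control 1 lay close to each other without overlap, with a log2 fold change of 0.87 (SE 0.21, adjusted p = 0.0539, edgeR). DESeq2 called Myl9 higher (adjusted p = 0.00189). Per count of Myl9 there were 0.234, 0.699 and 0.353 counts of Myh11 in RARdn 1, 2 and 3, against 0.226, 0.132 and 0.214 in control 1, 2 and 3. RARdn 1 and control 1 nearly met in this ratio, and RARdn 2 stood far above the rest.

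Cnn1 encodes calponin 1, an actin-binding protein of differentiated smooth muscle (chromosome 9, 22099216 to 22109630), and had the largest difference of the set. It was at 1.85, 12.7 and 2.80 CPM in RARdn 1, 2 and 3, against 0.470, 0.2005 and 0.278 CPM in control 1, 2 and 3. These levels rest on 108, 642 and 85 counts in RARdn 1, 2 and 3 and on 18, 9 and 12 counts in control 1, 2 and 3. The groups were far apart, yet the RARdn libraries also differed among themselves more than for any other gene of the set. The log2 fold change was 4.20 (SE 0.79, adjusted p = 0.0271, edgeR), and 2.88 (adjusted p = 0.0442) without RARdn 2. Leaving out control 1, 2 or 3 ended the call, at adjusted p-values of 0.0657, 0.111 and 0.0975.

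Lmod1, leiomodin 1, which nucleates actin filaments in smooth muscle (chromosome 1, 135324807 to 135368065), was at 1.504, 3.91 and 2.37 CPM in RARdn 1, 2 and 3, against 0.914, 0.601 and 0.857 CPM in control 1, 2 and 3. The groups did not overlap (log2 fold change 1.71, SE 0.39, adjusted p = 0.0497, edgeR), and the call sat at the threshold. Leaving out any control or RARdn 2 ended it, at adjusted p-values of 0.0991, 0.194 and 0.144 for control 1, 2 and 3 and 0.127 for RARdn 2.

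Tagln, transgelin or SM22 alpha, an actin-bundling protein and usually among the most abundant smooth muscle transcripts (chromosome 9, 45929619 to 45936058), had very few counts in these tables. It was at 0.513, 0.710 and 0.658 CPM in RARdn 1, 2 and 3, against 0.548, 0.490 and 0.255 CPM in control 1, 2 and 3, on 11 to 36 counts. The groups overlapped (log2 fold change 0.54, SE 0.40, adjusted p = 0.472, edgeR), although in CPM without TMM scaling they did not (0.567 to 0.692 CPM in RARdn, 0.248 to 0.544 CPM in control libraries). In GENCODE release M21, 1349 of the 1988 exon bases of Tagln (67.9%) also lie in exons of the opposite-strand genes Gm48529 and Pcsk7, and the strand setting of the counting is not given. Reads in such bases cannot be assigned without strand, so the level of Tagln is uncertain, and the part of this overlap in the low count was not tested.

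Des, desmin, the intermediate filament protein of all muscle types and of pericytes and pancreatic stellate cells (chromosome 1, 75360329 to 75368579), was at 61.6, 87.4 and 53.4 CPM in RARdn 1, 2 and 3, against 52.2, 44.8 and 39.5 CPM in control 1, 2 and 3. RARdn 3 and control 1 nearly met, and the difference was small (log2 fold change 0.57, SE 0.18, adjusted p = 0.120, edgeR). DESeq2 called it (adjusted p = 0.0456). Of its exon bases, 5.86% are shared with the opposite-strand gene Gm15179. Per count of Acta2, Des counts were 0.690 ± 0.0463 in RARdn and 1.07 ± 0.199 in control libraries (SD, n = 3 each), with no overlap. Synpo2, synaptopodin 2, an actin-bundling protein of the Z-disc and dense bodies (chromosome 3, 123076519 to 123236149), was at 5.74, 11.4 and 5.27 CPM in RARdn 1, 2 and 3, against 4.41, 5.10 and 5.86 CPM in control 1, 2 and 3. Only RARdn 2 lay outside the control range (log2 fold change 0.55, SE 0.30, adjusted p = 0.319, edgeR), and without that library the log2 fold change was 0.11 (adjusted p = 0.825).

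Myocd, myocardin, the coactivator of serum response factor in cardiac and smooth muscle (chromosome 11, 65176561 to 65269989), had the lowest level per kilobase of exon of the set. It was at 0.752, 2.09 and 0.560 CPM in RARdn 1, 2 and 3, against 0.705, 0.111 and 0.301 CPM in control 1, 2 and 3, on 5 to 106 counts. Control 1 reached the range of RARdn 1 and 3, so the groups overlapped (log2 fold change 1.64, SE 0.70, adjusted p = 0.210, edgeR). Without RARdn 2 its log2 fold change was 0.85 and without control 1 it was 2.46.

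Per kilobase of merged exons, Myl9, Acta2, Des, Actg2 and Myh11 held the same order in both groups. In RARdn libraries they stood at 54.0 ± 13.2, 45.0 ± 14.04, 17.98 ± 4.73, 9.33 ± 5.55 and 3.80 ± 3.00 CPM per kilobase (SD, n = 3). In control libraries they stood at 29.6 ± 6.82, 19.97 ± 5.93, 12.1 ± 1.70, 1.497 ± 0.533 and 0.877 ± 0.379 CPM per kilobase. As neighbours in this order, Myl9 and Acta2 overlapped between libraries in both groups, and so did Actg2 and Myh11, whereas Des and Actg2 overlapped in RARdn libraries and not in controls. Acta2 and Des did not overlap in either group. Within every single library the order nevertheless held, with Myl9 above Acta2, then Des, Actg2 and Myh11. Cnn1 was at rank 6 of 10 in RARdn and rank 9 in control libraries, where it lay at 2.11 ± 2.19 and 0.116 ± 0.0507 CPM per kilobase. Myocd was last in both groups, at 0.177 ± 0.130 CPM per kilobase in RARdn and 0.0580 ± 0.0472 in control libraries. Lmod1, Synpo2 and Tagln, between 0.315 and 0.657 CPM per kilobase in RARdn and between 0.2002 and 0.391 in control libraries, changed places between the groups.

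The genes varied together among the RARdn libraries. RARdn 2 was the highest RARdn library for 10 of 10 genes, whereas it was the highest for 32.6% of all genes tested. RARdn 1 was the lowest for 4 genes and RARdn 3 for 6. The excess of RARdn 2 over the mean of RARdn 1 and 3 was 5.45-fold for Cnn1, 3.51-fold for Myh11, 3.19-fold for Myocd and 2.57-fold for Actg2. It was smaller for Des at 1.52-fold, Myl9 at 1.44-fold and Tagln at 1.21-fold. The median gene of the set spanned 1.23 log2 units among RARdn libraries, where the median of all genes tested spanned 0.48. Among controls the spread was narrower, with 0.79 log2 units for the set and 0.29 for all genes tested, and control 1 was the highest control for 9 of 10 genes, against 39.9% of all genes.

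**Figure D2:**
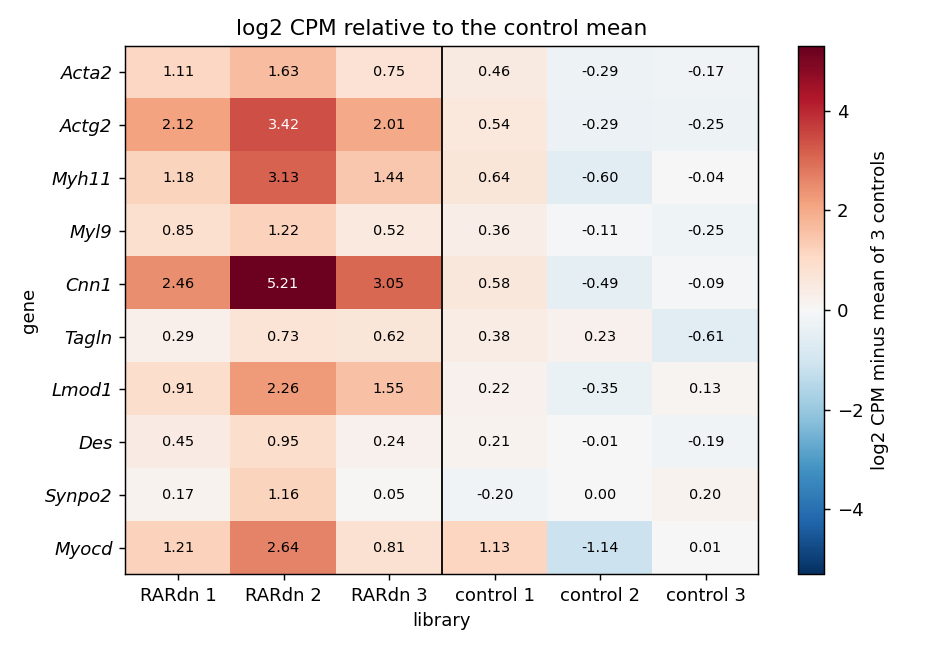
Log2 CPM of each contractile gene (rows) in each library (columns) relative to the mean of the 3 controls, in red where higher and blue where lower. The column RARdn 2 is the deepest red in each row, from 0.73 for Tagln to 5.21 for Cnn1.

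Cnn1, Actg2 and Myh11 had the largest group differences and stood highest in RARdn 2 relative to controls. The group difference includes RARdn 2 and uses the same controls, so this likeness is partly built in. Over the 6 libraries, each gene's log2 CPM correlated with the mean of the other 9 at a Pearson r of 0.69 for Tagln, 0.73 for Synpo2 and 0.90 to 0.99 for the others. These 6 points share the group difference and the height of RARdn 2, so the values describe a common profile and carry no test.

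The rank of RARdn 2 was shared by most markers of other stromal and lining cells, though the spread among RARdn libraries differed in size. RARdn 2 was the highest RARdn library for 14 of 16 mesenchyme markers, 7 of 8 mesothelium markers and 7 of 8 endothelium markers. The count was 15 of 24 for other contractile genes, 7 of 14 for pericyte genes, 3 of 22 for contraction signalling and 2 of 15 for striated muscle markers tested. The median marker spanned 0.39 log2 units among RARdn libraries for mesenchyme, 1.09 for mesothelium and 0.16 for endothelium. That span was 1.23 for the contractile genes and 0.48 for all genes tested. Control 1 was likewise the highest control for 15 of the 16 mesenchyme markers and for all 8 mesothelium and all 8 endothelium markers. Summed mesothelium markers were at 187, 274 and 155 CPM in RARdn 1, 2 and 3, against 248, 170 and 175 CPM in control 1, 2 and 3. None of the 8 mesothelium markers was at 0, and their sums overlapped between groups. Krt7, the marker of highest mean, was at 84.4, 79.6 and 63.6 CPM in RARdn 1, 2 and 3 and 78.0 to 89.8 CPM in controls. Of the 8, Msln was higher in each RARdn library than in any control and Muc16 lower. Of all genes tested, 13.9% and 13.7% were so separated. These 3 markers were chosen after their values were seen. Summed endothelium markers were at 519.5, 550.4 and 551 CPM in RARdn libraries and 579, 508 and 483 CPM in controls. The part of these cells in the height of RARdn 2 or control 1 was not tested.

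Without RARdn 2 the 10 genes still had positive log2 fold changes, with a median of 0.88. The other RARdn libraries lay above every control for 7 genes, where 16.6% of all genes tested were separated in this way. Since RARdn 2 was the highest RARdn library for all 10 genes, leaving it out could not change this count of 7. The calls fell to 2 of 10, Actg2 and Cnn1, where 0.111% of genes tested were called higher and 0.655% in either direction. None of the 10 was called without control 2 or without control 3, where the share of all genes called higher was 0.148% and 0.141%. Without control 1 there were 2 calls, with 0.636% of all genes, and without RARdn 3 there were 7, with 6.98% of all genes.

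**Figure D3:**
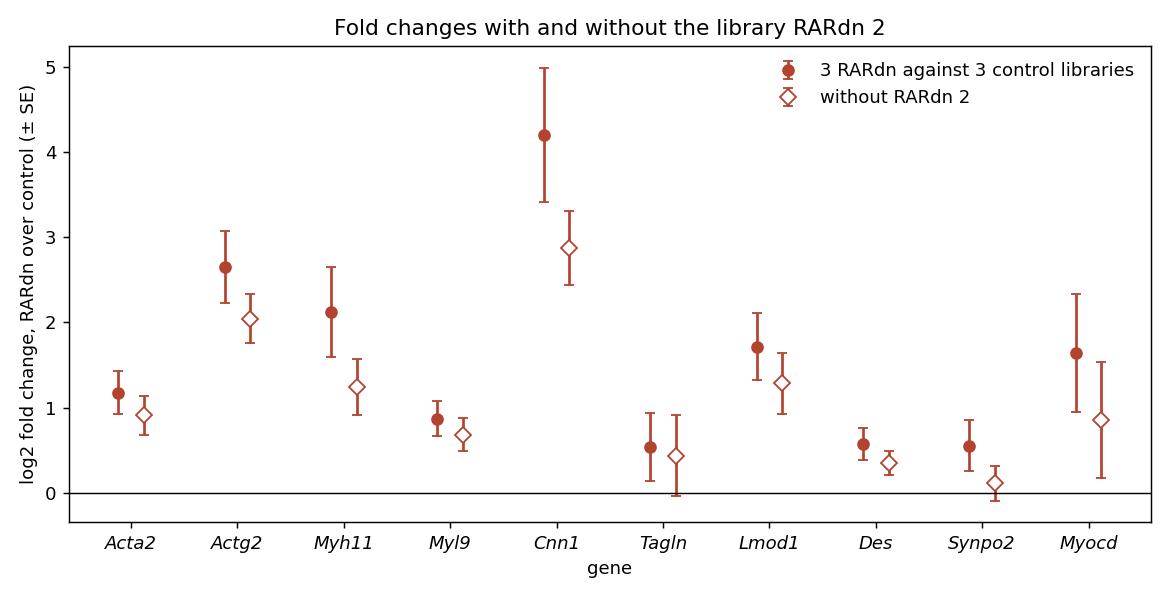
Log2 fold change of RARdn over control with its SE, fitted with all 3 RARdn libraries (filled circles) and without RARdn 2 (open diamonds). Cnn1 moved from 4.20 to 2.88, Myh11 from 2.12 to 1.24 and Synpo2 from 0.55 to 0.11.

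Because smooth muscle belongs to the mesenchyme, the contractile genes were also set against a list of 16 mesenchyme markers, among them the collagens, Vim and Dcn. Summed, these markers were at 10676, 12043 and 10939 CPM in RARdn 1, 2 and 3, against 8769, 6509 and 7307 CPM in control 1, 2 and 3, with no overlap. Of the 16, Lum, the proteoglycan lumican, rose (109.7 ± 16.1 CPM in RARdn and 52.1 ± 8.41 CPM in control libraries, SD, n = 3 each; log2 fold change 1.07, SE 0.15, adjusted p = 0.0128, edgeR), and none fell. The call of Lum was lost without control 2 (adjusted p = 0.0587). The other 15 also had log2 fold changes above 0 without passing, Col3a1 among them at 0.58 (adjusted p = 0.145, edgeR). Of all genes tested, edgeR called 1.37% higher, and 50% had log2 fold changes above 0. The median of the list was 0.54. DESeq2 called 9 of the 16 higher, with 4.17% of all its genes.

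Since the summed markers were themselves higher in every RARdn library than in any control, dividing by them lowers every gene in RARdn relative to controls. In CPM after TMM scaling, 7 of the 10 genes and 13.9% of all genes tested were higher in each RARdn library than in any control. Counted per 1000 mesenchyme marker counts, 4 of the 10 genes were separated in this way, as were 1.26% of all genes tested. Actg2 was at 0.926, 2.03 and 0.839 in RARdn 1, 2 and 3, against 0.375, 0.281 and 0.257 in control 1, 2 and 3. Cnn1 was at 0.173, 1.05 and 0.256 in RARdn libraries, against 0.0536, 0.0308 and 0.0380 in controls. Myh11 (1.34, 4.58 and 1.56 in RARdn, 1.12, 0.633 and 0.833 in control) and Lmod1 (0.141, 0.324 and 0.217 in RARdn, 0.104, 0.0924 and 0.117 in control) did not overlap either, with a narrow gap between the nearest libraries for both. The other 6 overlapped. Acta2 was at 8.74 ± 2.22 in RARdn and 5.75 ± 0.834 in control libraries, Myl9 at 5.56 ± 1.07 and 4.55 ± 0.571, and Des at 5.97 ± 1.20 and 6.08 ± 0.750 (SD, n = 3 each). On this scale the difference of Des, Synpo2 and Tagln was close to 0, with log2 ratios of the means of -0.026, -0.084 and -0.046. The scale rests largely on its most abundant markers, Col3a1, Col1a1, Col1a2 and Sparc. Their RARdn means were 3166, 2567, 1930 and 1143 CPM, where the whole marker list summed to 11219 CPM.

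**Figure D4:**
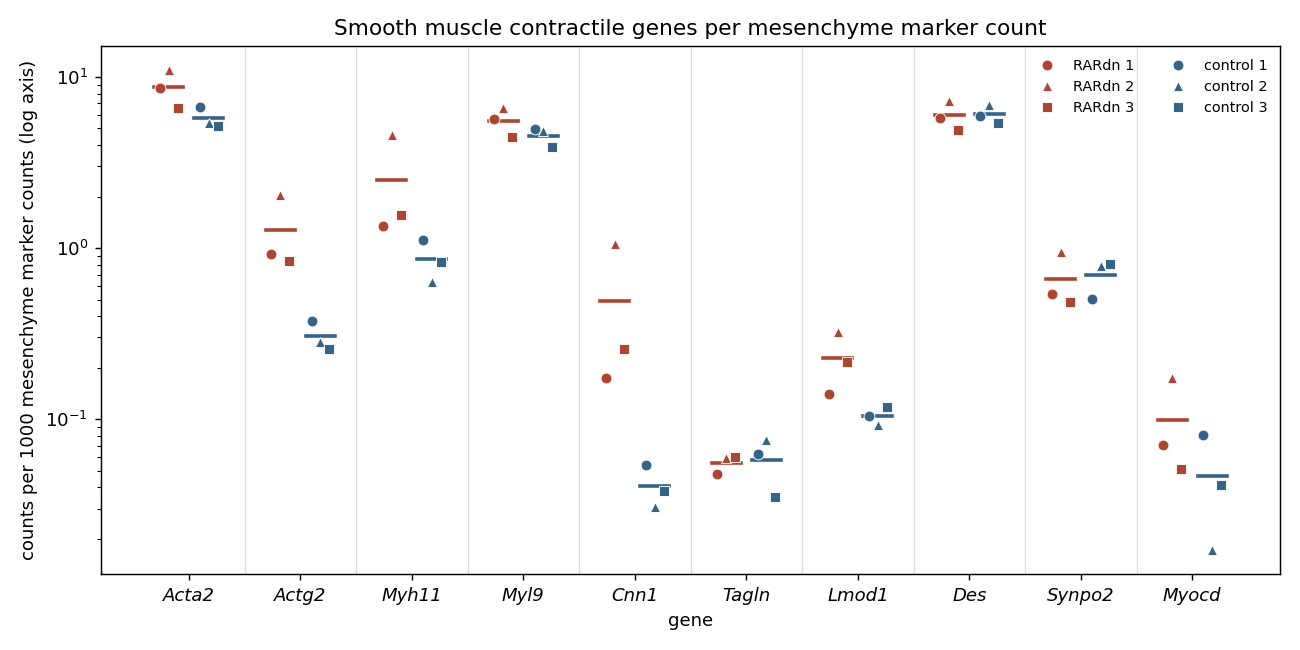
Counts of each contractile gene per 1000 mesenchyme marker counts in the same library (log axis), with RARdn libraries in red left of control libraries in blue and bars at the means. Actg2, Myh11, Cnn1 and Lmod1 remain apart between groups, while Des averages 5.97 in RARdn and 6.08 in control libraries.

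The regulators of the programme were read next, as a list of 17 genes of which 15 were tested. No regulator was called by edgeR, and 7 of the 15 had unadjusted p-values below 0.05, beside the 22.2% of all genes given above. DESeq2 called 3 higher, with 4.17% of all its genes, and limma-voom 0. Srf, the gene of serum response factor itself and chosen for naming after its values were seen, was at 44.9 ± 2.06 CPM in RARdn and 47.4 ± 1.75 CPM in control libraries (SD, n = 3 each; adjusted p = 0.647, edgeR). Those with the highest mean CPM in the list were Elk3, which competes with myocardin for serum response factor (log2 fold change 0.19, adjusted p = 0.397), and Mkl2, a myocardin-related coactivator (log2 fold change -0.31, adjusted p = 0.103). The list's median log2 fold change was 0.25, with 9 of the 15 above 0, as were 50% of all genes tested. Of the 15, 6 were higher in each RARdn library than in any control, and 1, Mkl2, was lower. Of all genes tested, 13.9% and 13.7% were so separated. Mkl1, the other myocardin-related coactivator and chosen after its values were seen, was separated higher (log2 fold change 0.37, adjusted p = 0.0627, edgeR).

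Of 24 other genes of the contractile apparatus and its anchors, 2 rose and 1 fell, where 4.02% of all genes tested were called in either direction. Tpm2, beta tropomyosin, which lies along the actin filament, was at 46.6, 59.9 and 34.0 CPM in RARdn 1, 2 and 3, against 30.04, 23.2 and 22.5 CPM in control 1, 2 and 3 (log2 fold change 0.89, SE 0.20, adjusted p = 0.0490, edgeR). Jph2, junctophilin 2, which ties the calcium store to the cell membrane, was at 6.48, 7.93 and 4.87 CPM in RARdn libraries, against 3.65, 2.78 and 2.62 CPM in controls (log2 fold change 1.10, SE 0.24, adjusted p = 0.0418). Lpp, a focal adhesion protein of smooth muscle, was lower, at 53.6 ± 4.18 CPM in RARdn and 77.5 ± 2.41 CPM in control libraries (SD, n = 3 each; log2 fold change -0.53, SE 0.095, adjusted p = 0.0219). Of the 24, 20 had log2 fold changes above 0, as did 50% of all genes tested, and the median was 0.36. All 3 calls were lost without any 1 control or without RARdn 2 (adjusted p = 0.0604 to 0.180), and those of Tpm2 and Lpp also without RARdn 1 (0.0540 and 0.0538).

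Of 22 genes of contraction signalling, a list that mixes genes acting for and against contraction, edgeR called none. Of the 22, 8 had unadjusted p-values below 0.05, beside 22.2% of all genes. DESeq2 called 3 higher and limma-voom 1, beside 4.17% and 1.42% of all their genes. Rhoa and Rock2, with the highest mean CPM in the list, encode the small GTPase and a kinase that keep smooth muscle contracted. Rhoa was at 228, 241 and 282 CPM in RARdn 1, 2 and 3, against 243, 239.5 and 252 CPM in control 1, 2 and 3 (log2 fold change 0.030, adjusted p = 0.917, edgeR), and the sign turned without RARdn 3. Rock2 had a log2 fold change of -0.14 (adjusted p = 0.438). The median of the list was 0.26, and 15 of the 22 were above 0, as were 50% of all genes tested. Of the 22, 4 were higher in each RARdn library than in any control and 3 lower. Of all genes tested, 13.9% and 13.7% were so separated. Ednra (log2 fold change 0.76, adjusted p = 0.0510, edgeR) was separated higher and Rock1 (-0.41, adjusted p = 0.0855) lower, both chosen after their values were seen.

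Of 14 genes of pericytes and the vessel wall, 2 rose and none fell, where 1.37% of all genes tested were called higher and 2.65% lower. Of the 14, 13 had log2 fold changes above 0, as did 50% of all genes tested. Rgs5, a regulator of G-protein signalling and a marker of pericytes, was at 99.5, 106 and 95.8 CPM in RARdn 1, 2 and 3, against 66.2, 37.5 and 34.9 CPM in control 1, 2 and 3 (log2 fold change 1.12, SE 0.22, adjusted p = 0.0335, edgeR). Gja4, connexin 37 of arterial vessels, was at 15.6, 18.1 and 13.9 CPM in RARdn libraries, against 10.3, 8.75 and 7.94 CPM in controls (log2 fold change 0.82, SE 0.16, adjusted p = 0.0279). The Rgs5 level was nearly even over the RARdn libraries, unlike the contractile genes with their height in RARdn 2. Both calls were lost without control 2, control 3 or RARdn 2 (adjusted p = 0.0867 to 0.137). The summed list was at 732, 774 and 760 CPM in RARdn libraries and 678, 644 and 655 CPM in controls.

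Muscle of other kinds and tissue next to the pancreas were checked with marker lists. Of 18 striated muscle markers, 15 were tested, edgeR called none, 1 had an unadjusted p-value below 0.05, and DESeq2 and limma-voom called 0. Their sum was 36.6, 17.9 and 8.10 CPM in RARdn 1, 2 and 3, against 18.2, 24.5 and 13.2 CPM in control 1, 2 and 3, and was thus highest in RARdn 1 and not in RARdn 2. Myh8 and Acta1, a fetal skeletal myosin and the skeletal actin, did not pass, with a log2 fold change of 0.21 for Myh8 (adjusted p = 0.860, edgeR) and 0.48 for Acta1 (adjusted p = 0.796), and both signs turned under other settings given with the alternatives. Markers of gut and stomach lining summed to 80.5, 131 and 146 CPM in RARdn libraries and 141, 126 and 119 CPM in controls, with 1 of 16 at 0 in all libraries and only 6 passing the filter. The list was uneven, as shown by members chosen after their values were seen. Cdx1 and Cdx2, the intestinal transcription factor genes, were at no more than 0.0395 CPM in RARdn libraries and 0.0783 CPM in controls. Fabp1, a fatty acid binding protein of gut and liver, was at 4.58, 0.690 and 0 CPM in RARdn 1, 2 and 3 and at no more than 0.0522 CPM in controls. Tff2, a secreted peptide of the stomach, was at 26.8, 72.8 and 50.6 CPM in RARdn 1, 2 and 3, against 47.5, 35.8 and 23.3 CPM in control 1, 2 and 3, and was thus highest in RARdn 2. Barx1, a transcription factor of stomach mesenchyme, was at 8.86, 13.1 and 6.65 CPM in RARdn libraries, against 20.9, 10.8 and 9.49 CPM in controls. Vil1, the villin of brush borders, was at 27.2 to 52.4 CPM in RARdn and 48.6 to 60.2 CPM in control libraries. The part of neighbouring gut tissue in the contractile genes was not tested. Of 11 markers of gut pacemaker cells and enteric nerves, 10 were tested and Hoxd13 was at 0 in all libraries. Ret, a receptor of enteric and other neural progenitors that is also made in pancreatic epithelium, fell (61.2 ± 16.9 CPM in RARdn and 139 ± 17.5 CPM in control libraries, SD, n = 3 each; log2 fold change -1.18, SE 0.20, adjusted p = 0.0202, edgeR). The call of Ret ended when control 2 or control 3 was left out, at adjusted p-values of 0.0800 and 0.0655. Kit, the marker of pacemaker cells, was at 54.4 ± 5.03 CPM in RARdn and 56.2 ± 1.69 CPM in control libraries (adjusted p = 0.813, edgeR).

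**Figure D5:**
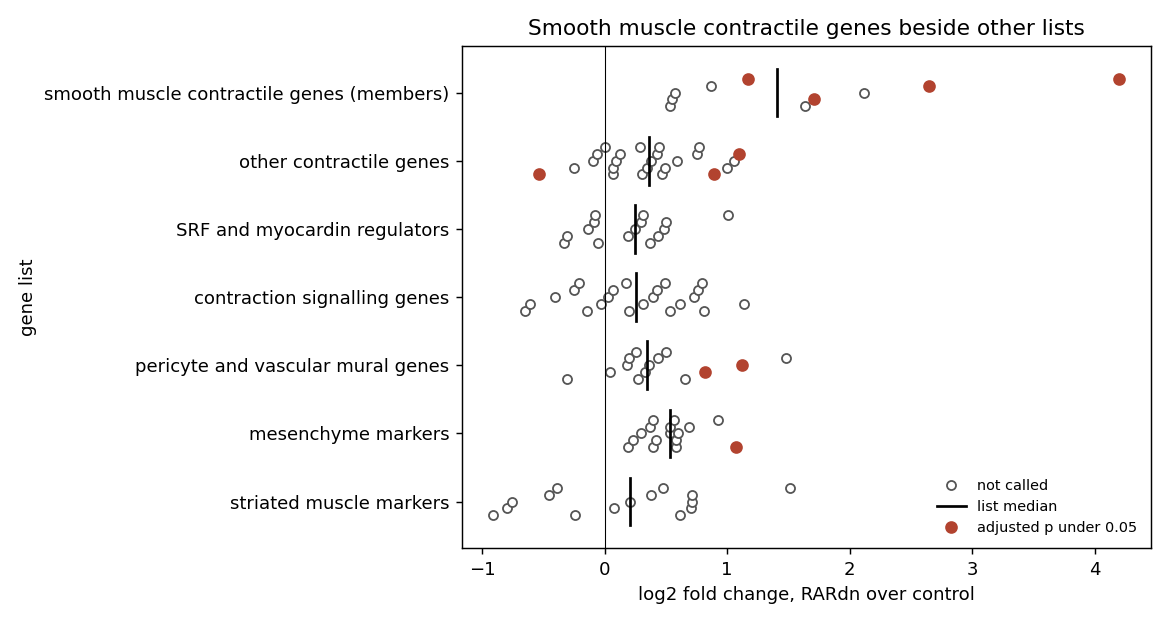
Log2 fold change of RARdn over control for each tested gene of 7 lists (circles, filled where the adjusted p was under 0.05), with a bar at each list's median. The contractile genes had a median of 1.41, against 0.54 for mesenchyme markers and 0.36 for other contractile genes.

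The genes whose profile over the 6 libraries was most like the mean profile of the contractile genes were picked from 11124 other genes that averaged 5 CPM or more. Among the closest were Fibin, Abca9, Arhgap20, Ptpra, Trip10, Sdc2 and Jcad, with a Pearson r of 0.997 for Fibin to 0.992 for Jcad. Fibin, a secreted protein gene, was at 6.14, 12.3 and 6.22 CPM in RARdn 1, 2 and 3, against 3.52, 2.21 and 2.52 CPM in control 1, 2 and 3. RARdn 2 was highest and control 1 above the other controls, as for 9 of the 10 contractile genes. Sdc2, the heparan sulfate proteoglycan syndecan 2, was at 26.3, 34.6 and 27.1 CPM in RARdn libraries, against 20.8, 17.3 and 17.9 CPM in controls. With 6 libraries and so many candidates, such values of r describe likeness in these libraries.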

How the data were processed

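RNA of whole e16.5 pancreas was sequenced in 3 RARdn and 3 control samples. The deposited tables give read counts per gene symbol for each sample, as the authors made them. Per the submitters' processing notes, HISAT2, HTSeq, cutadapt, FastQC, DESeq2 and bedtools were used with the builds mm10 and GRCm38, and their roles are not named. Versions, annotation and strand setting: not given in the sources used here. The 5 summary lines of each table (reads outside genes, ambiguous and the like) were left out.

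Genes kept by edgeR's filterByExpr were scaled with TMM and fitted with edgeR 4.0.16 (R 4.3.3) by the quasi-likelihood test over all 19070 genes, both groups, with Benjamini-Hochberg adjustment and a threshold of 0.05. The SE of a log2 fold change is its size over the root of F. DESeq2 1.42.0, limma-voom 3.58.1, other scalings and filters, the replicate number as a block and each sample left out were alternatives. Only the main edgeR fit was tested on simulated data.

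The members and gene lists were chosen with earlier results of these data known, and an earlier reading of the same tables also shaped the lists. Named from each list were at most 4 called genes, lowest p first, and where fewer than 2 were called those of highest mean CPM made up the number. Labels do not say whether samples came from separate litters, and p-values then reflect only how these samples spread, which may be technical. No pair of libraries agreed within sampling noise. Symbols were matched to GENCODE M21 (54000 of 54735 with a single gene) for positions and exon lengths. With 3 against 3 samples an exact permutation test of a single value cannot go below p = 0.1.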

Additional observations from a re-analysis of the deposited data

How the results depend on the processing

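The contractile genes kept log2 fold changes above 0 in each fit that tested them, though Tagln and Myocd were not tested with a minimum of 1 CPM in 3 libraries, and their calls did not hold as well. Against 4 called higher, there were 7 with no filter on low counts or with DESeq2, 1 with the 1 CPM minimum, 2 with limma-voom, and 0 to 7 with single samples left out. Counts over all genes, 262 higher and 505 lower, were 271 and 525 with limma-voom, 1123 and 1223 with no filter, 77 and 140 with the 1 CPM minimum, 1016 and 1260 with DESeq2, and 22 to 1404 and 71 to 1576 with single samples left out, lowest without RARdn 2 (higher) or control 2 (lower) and highest without RARdn 3. Higher calls in the lists were as follows. Other contractile genes had 2, against 7 without a filter, 0 with the 1 CPM minimum, 8 with DESeq2, 1 with limma-voom and 0 to 10 with samples left out (lower calls 0 to 1). Regulators had 0, against 2 without a filter, 3 with DESeq2 and 0 to 3 with samples left out. Contraction signalling had 0, against 1 with RLE scaling or limma-voom, 4 without a filter, 3 with DESeq2 and 0 to 6 with samples left out. Pericyte genes had 2, against 0 with the 1 CPM minimum and 0 to 4 with samples left out. Gut wall and nerve markers had 0, against 4 without a filter or with DESeq2 and 0 to 4 with samples left out (lower calls 0 to 1). Mesenchyme markers had 1, against 4 without a filter, 9 with DESeq2, 2 with limma-voom and 0 to 7 with samples left out. Striated markers had 0 to 2 higher and 0 to 1 lower calls with samples left out. The cause of these moves was not tested. Signs turned for 4 genes: over the fits with a sample left out, Rhoa ranged from -0.059 to 0.12, Kit from -0.12 to 0.0085, Myh8 from -0.67 to 0.63 and Acta1 from -1.90 to 0.97, with Acta1 at -0.38 with limma-voom.

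Same-numbered samples deviated together with r of 0.013, -0.014 and 0.13, so the numbers were not taken to pair samples. With the replicate block, 321 genes were called higher and 496 lower, and 4 contractile genes (without Lmod1, adjusted p = 0.0674, and with Myl9, 0.0301), 4 other contractile genes, 2 contraction signalling genes, 1 gut wall and nerve marker and 2 mesenchyme markers were higher, while Myh8 turned to -0.093 and Acta1 to -0.56. Low counts limit Tagln, Myocd and the control level of Cnn1.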
